A study of Mus musculus with 6 samples.

Results

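The comparison described here sets mouse fibroblastic reticular cells (FRCs, an established line) kept in medium from 67NR tumour cells against the same line kept in medium that FRCs had conditioned themselves. It uses 4 of the 6 libraries of the study, chosen by the treatment named in their labels, 2 per medium. Every gene with enough counts was tested, which gave 15055 of 55367 gene symbols. The control group (labelled CCM) received medium conditioned by the FRC line, the 67NR group (labelled TCM) received medium conditioned by the mouse mammary carcinoma line 67NR, and the third group received medium of the 4T1 line. 67NR and 4T1 are sister lines from the same mammary tumour, known as non-metastatic and metastatic. In all 3 groups the donor cells had conditioned plain RPMI for 24 h, the medium was supplemented with 2% serum and antibiotics, and the FRCs stayed in it for 96 h, with fresh medium given every 48 h. Messenger RNA was then sequenced. The study asks how tumour-derived factors act on the fibroblasts of draining lymph nodes.

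FRCs build the fibre scaffold of the lymph node, ensheath its collagen conduits and guide lymphocytes. They are known to take in danger and cytokine signals and to answer with chemokines, growth factors and altered matrix. Type I interferon, when it binds its receptor, activates transcription factors such as STAT2 and IRF9, which switch on a large set of antiviral genes, and such genes also respond to sensors of nucleic acid inside the cell. Proliferating cells carry out a separate programme, in which E2F factors drive replication genes and a later wave, under MYBL2 and FOXM1, drives the genes of mitosis.

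Total counts were 19262738 and 13581510 in control medium and 21797578 and 20886242 in 67NR medium, so that 1 count stood for 0.0463 to 0.0743 CPM (the usual counts-per-library unit, scaled for library total as described under the processing). Across genes, the 2 libraries of a medium correlated with each other at 0.992 or above. No label states that replicates come from separate cultures, so the spread behind each p-value is that between these samples and may be technical. No group received unconditioned medium. Factors added by tumour cells, FRC factors that are missing and nutrients used up therefore cannot be told apart. The FRC line is a line of 1 cell type in culture, and its labels were checked against markers. Pdgfrb, the PDGF receptor of mesenchymal cells, was at 384 and 357 CPM in control medium, whereas Ccl19, Ccl21a and Thy1, further markers of FRCs in tissue, had 0 counts in every library. In bulk RNA, fewer cells with a transcript and less of it per cell cannot be told apart.

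In 67NR medium, interferon-stimulated genes were higher and genes of cell division were lower. Complement genes rose in part, most of the glycolytic genes called were lower, and matrix genes moved in both directions. Of the 15055 genes tested, 4150 differed from control medium (27.6%). Of these, 1951 were higher (13.0%) and 2199 lower (14.6%), and 367 (2.44%) and 358 (2.38%) of them by at least 2-fold. Here and below, a gene is called higher or lower at an adjusted p under 0.05 from edgeR's quasi-likelihood test with Benjamini-Hochberg adjustment over all genes tested. The counts depended on having both control and both 67NR libraries. Where a list count below moved by more than 1.5 times when a control or 67NR library was left out, the range over those 4 fits is given beside it. Without control replicate 1 they were 1109 and 1350, without control replicate 2 they were 1089 and 1317, without 67NR replicate 1 they were 1043 and 1184, and without 67NR replicate 2 they were 1112 and 1252. Against 4T1 medium 6531 genes differed (43.4%), 2989 higher (19.9%) and 3542 lower (23.5%) in 67NR medium. The difference between both tumour media was tested in that direct comparison, and values in 4T1 medium are given below where it bears on a gene. Over all genes tested the median log2 fold change against control was 0.0032, and this is the value to read the list medians against. List counts are to be read against the 13.0% of tested genes called higher and the 14.6% called lower. The control and 67NR libraries did not overlap in 10173 of the 15055 genes tested (67.6%). Such a separation, where it is given below, is therefore the usual outcome.

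**Figure D1:**
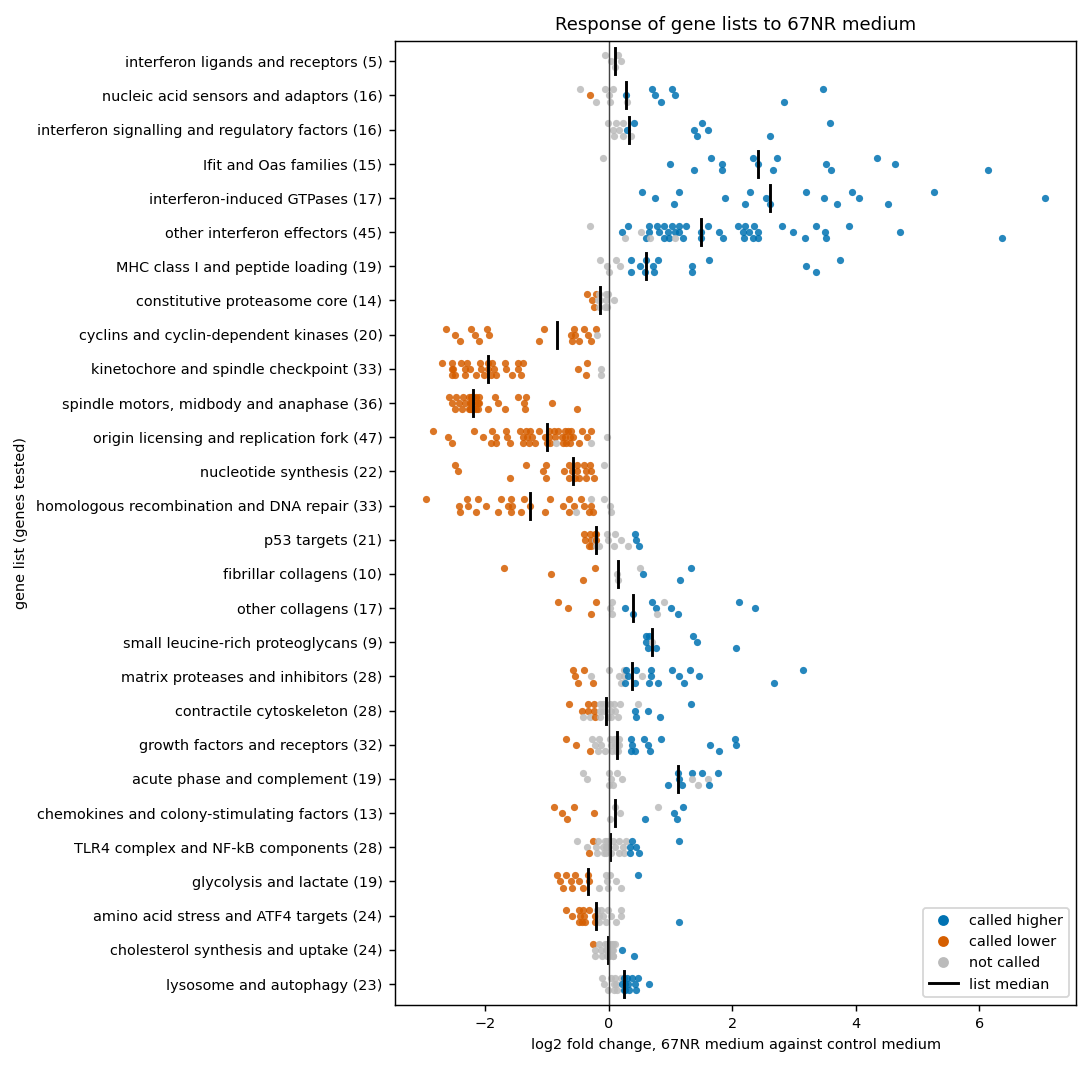
Log2 fold change of 67NR against control medium (horizontal axis) for the tested members of 28 gene lists (vertical axis, number tested in brackets), with each dot a gene, coloured by its call, and the black bar the list median. The interferon effector lists have medians of 1.49 to 2.61, the spindle and kinetochore lists of -2.20 and -1.96, and the glycolysis list of -0.34.

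The interferon response was read from its start. None of the receptor list's 5 tested genes passed, with a median log2 fold change of 0.10, and the receptor chains Ifnar1 and Ifnar2 gave log2 values of 0.15 (adjusted p = 0.134) and 0.20 (adjusted p = 0.0584). Both passed when the 4T1 libraries were left out of the fit (adjusted p = 0.0279 and 0.0229). Ifnb1, the gene of interferon beta, had 0 counts in control medium and 4 counts over both 67NR libraries, too few to test. Among the sensors of foreign nucleic acid, 8 of 16 tested genes rose and 1 fell (median log2 0.28), the latter not without control replicate 2 or 67NR replicate 2. Ddx58, which encodes the RNA sensor RIG-I, was at 65.7 and 62.9 CPM in control medium and 134 and 128 CPM in 67NR medium (log2 1.03). Ifih1, the sensor MDA5, was at 26.1 and 25.0 CPM and rose to 56.9 and 51.0 CPM (log2 1.08), while in 4T1 medium it stood below control at 20.6 and 19.4 CPM. Dhx58, a regulator of both sensors, rose from 2.91 and 3.64 CPM to 22.7 and 23.4 CPM (log2 2.84, SE 0.14, adjusted p = 3.58e-08). For each of the 3 sensors both 67NR libraries stood above both control libraries and above both 4T1 libraries. Zbp1, a sensor of Z-form nucleic acid, rose as well (log2 3.47), but stood higher still in 4T1 medium, where it was at 12.9 and 11.4 CPM against 7.04 and 7.88 CPM in 67NR medium.

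Several transcription factors downstream rose. Of 16 tested genes of interferon signalling, 8 rose and none fell (median log2 0.33). Stat2, which carries the signal to the nucleus, was at 26.3 and 28.4 CPM against 81.7 and 73.3 CPM (log2 1.51), and its binding partner Irf9 rose from 26.5 and 23.3 CPM to 69.1 and 65.9 CPM (log2 1.43). For both genes the 67NR libraries stood above both control libraries. Irf7 (chromosome 7, 141262706 to 141266481), the factor that amplifies interferon production, rose from 3.69 and 4.09 CPM to 24.6 and 22.6 CPM (log2 2.61, adjusted p = 7.34e-07). Usp18 (chromosome 6, 121245906 to 121270917), a protease that removes ISG15 from proteins and dampens receptor signalling, rose from 1.14 and 1.26 CPM to 16.4 and 12.3 CPM (log2 3.58). In 4T1 medium Usp18 was at 4.39 and 1.85 CPM and Stat2 at 42.2 and 40.5 CPM, both lower than in 67NR medium in the direct test. Of the 16 signalling genes, 6 were higher and 3 lower in 67NR than in 4T1 medium. The list's median log2 fold change against control was larger in 4T1 medium, at 0.66. The kinases Jak1, Jak2 and Tyk2 and the factor Irf3, which are regulated mainly at the protein level, did not pass, although Jak1 did without the 4T1 libraries in the fit (adjusted p = 0.0131).

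The effector families carried the largest rises of the comparison. Of the 15 Ifit and Oas genes tested, 14 rose and none fell (median log2 2.42), and 12 were higher than in 4T1 medium. Ifit3, an RNA-binding antiviral protein, was at 15.5 and 13.6 CPM in control medium, 106 and 79.5 CPM in 67NR medium and 21.9 and 12.6 CPM in 4T1 medium (log2 2.66 against control and 2.45 against 4T1). The member that did not pass was Ifit2, at 35.9 and 43.3 CPM against 38.8 and 35.1 CPM (log2 -0.09, SE 0.10, adjusted p = 0.518), whose groups overlapped. Ifit2 lies beside Ifit3 and Ifit1 on chromosome 19, from 34550694 to 34576419. Oas2, which makes the second messenger that activates RNase L, had 1 count in control medium and 111 in 67NR medium, a ratio of 86.2 with a 95% counting interval of 15.2 to 3435. Ifit and Oas genes have close paralogs, so the share of reads credited to each is uncertain. All 17 tested interferon-induced GTPases rose (median log2 2.61), and some of them act on the membranes of vacuoles that hold pathogens. Iigp1 was at 0.934 and 1.04 CPM in control medium and 16.8 and 13.4 CPM in 67NR medium (log2 3.94), and Irgm2 at 7.58 and 5.50 CPM against 40.6 and 37.0 CPM (log2 2.54). Mx1, a classical antiviral GTPase, went from 1 count to 61 counts, a ratio of 47.4 (8.19 to 1901).

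Of 45 other tested effectors, 40 rose and none fell (median log2 1.49, and the same with Slfn2 at its bound), and 30 were higher and 8 lower than in 4T1 medium. The effector lists were also above control in 4T1 medium. Their median log2 values there were 0.90 for Ifit and Oas genes, 1.43 for the GTPases and 0.79 for the other effectors. Ifi44 (chromosome 3, 151730922 to 151749960), a cytoplasmic interferon-induced protein, showed the largest rise among genes of at least 10 CPM. It was at 0.986 and 0.595 CPM in control medium and 24.9 and 18.5 CPM in 67NR medium (log2 4.71, SE 0.35, adjusted p = 7.18e-07), with 9.46 and 4.58 CPM in 4T1 medium. Isg15, the ubiquitin-like modifier, rose from 7.27 and 5.95 CPM to 55.7 and 49.7 CPM (log2 2.98). Lgals3bp, a secreted galectin-binding glycoprotein, rose from 49.5 and 38.6 CPM to 212 and 197 CPM (log2 2.21), and Xaf1 from 35.8 and 27.3 CPM to 137 and 133 CPM (log2 2.09). Rtp4, Ifi27l2a, Gbp3 and Apol9b were also among the 10 largest rises, with log2 fold changes of 3.50, 3.35, 3.19 and 3.18. The integrin chain Itga8 (log2 3.32), described with the matrix genes below, was among these 10 as well. Some effectors stood higher in 4T1 medium instead. Ifitm3, which blocks viral entry at endosomes, was at 164 and 156 CPM in control, 338 and 333 CPM in 67NR and 485 and 418 CPM in 4T1 medium, and Gvin1, a large GTPase, at 4.88 and 5.28, 19.0 and 18.2, and 57.3 and 59.2 CPM. Slfn2 had 0 counts in control and 24 in 67NR medium, at least 6.21-fold higher with the control group set to a floor of 3 counts, and it was lower than in 4T1 medium (log2 -4.54). Rsad2, the enzyme viperin, passed (log2 2.80) at 0 and 0.297 CPM against 1.02 and 0.779 CPM. That call was lost without control replicate 1 (adjusted p = 0.166), without 67NR replicate 1 (0.101) and with DESeq2 (0.0749).

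**Figure D2:**
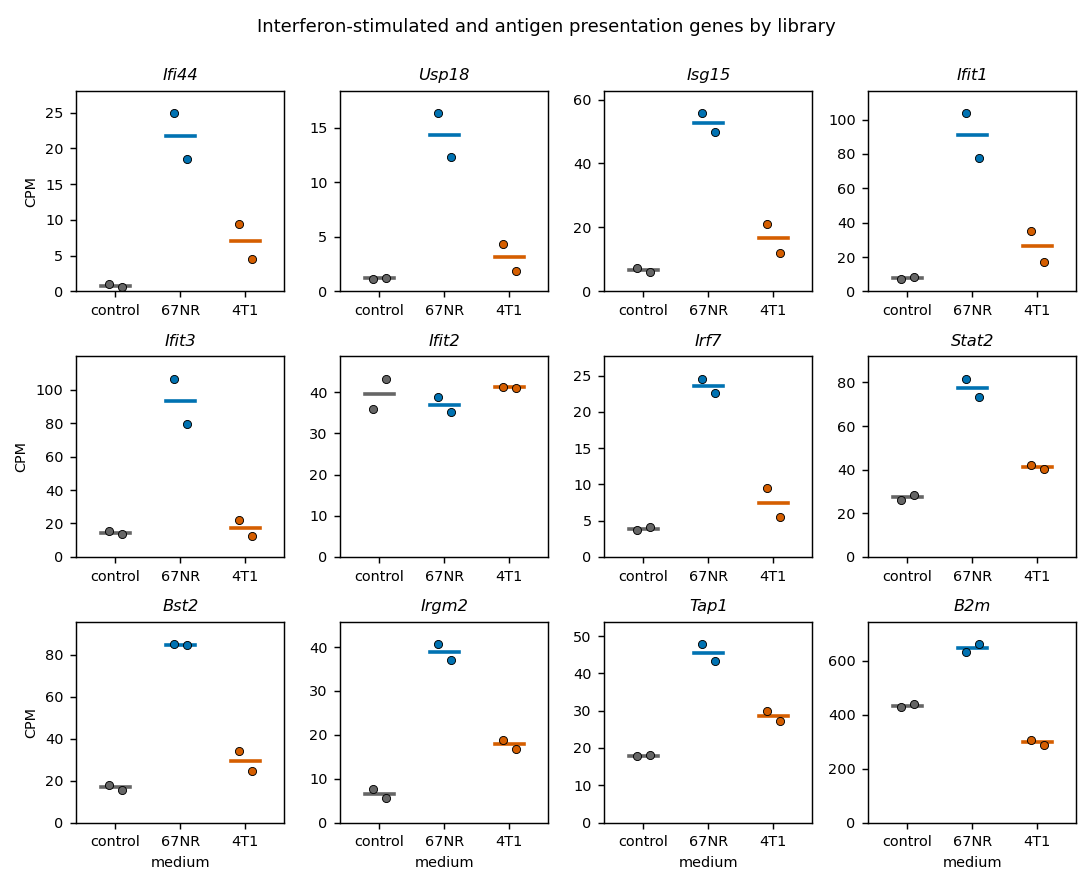
CPM (vertical axes, linear from 0, a separate scale per gene) of 12 interferon-stimulated and antigen presentation genes in control, 67NR and 4T1 medium, with each dot a library and each bar the mean of 2. In 11 panels both 67NR libraries lie above both control libraries, and Ifit2, at 35.1 to 43.3 CPM in those media, is the panel in which they overlap (67.6% of all genes tested had no overlap).

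The promoters of these genes were read for the letters GAAANNGAAA on either strand, a short form of the interferon-stimulated response element (ISRE) that interferon-activated factors bind. The search covered the 250 bases upstream of each gene start in RefSeq (build GRCm38.p6), where 9983 of the 15055 tested symbols matched the table. The letters stood in 3.21% of the tested genes that matched and in 3.46% of all 27025 symbols of the table. Among genes called at least 2-fold higher they stood in 37 of 242 (15.3%), and among genes called at least 2-fold lower in 8 of 237 (3.38%). They stood in 9 of 12 matched Ifit and Oas genes, in 8 of 9 matched GTPases and in 17 of 37 matched other effectors. In other interferon lists with rising genes they stood in 3 of 13 matched signalling genes, 3 of 14 of MHC class I, 0 of 13 nucleic acid sensors and 0 of 7 of the immunoproteasome list. In 2 matrix lists with rising genes they stood in 3 of 13 matched elastic fibre genes and 0 of 7 small leucine-rich proteoglycans. Ifit2, Oasl2, Ifi44 and Irf7 had no match in this window. The 5 stretches below are shown because their genes rose at least 4-fold and carry the letters in different number and spacing. Each is given 5′ to 3′ on the strand of its gene, and capitals mark the matched letters, which read as the reverse complement where the match is on the other strand.
Ifit1 (chr19:34640749-34640868, plus strand): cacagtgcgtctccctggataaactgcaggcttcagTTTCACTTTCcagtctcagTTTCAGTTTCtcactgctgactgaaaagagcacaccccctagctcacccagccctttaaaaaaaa
Ifit3 (chr19:34583369-34583488, plus strand): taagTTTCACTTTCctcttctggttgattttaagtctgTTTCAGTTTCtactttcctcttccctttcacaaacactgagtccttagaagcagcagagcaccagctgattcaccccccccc
Isg15 (chr4:156200839-156200958, minus strand): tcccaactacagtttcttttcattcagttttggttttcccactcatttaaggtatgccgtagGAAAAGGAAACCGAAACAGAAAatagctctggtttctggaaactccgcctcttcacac
Bst2 (chr8:71537493-71537612, minus strand): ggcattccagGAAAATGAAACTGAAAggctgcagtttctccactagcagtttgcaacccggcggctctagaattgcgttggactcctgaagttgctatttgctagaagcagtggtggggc
Irgm2 (chr11:58214837-58214956, plus strand): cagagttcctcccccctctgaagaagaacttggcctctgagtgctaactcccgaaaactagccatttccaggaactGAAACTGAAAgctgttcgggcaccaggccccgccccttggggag

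Ifit1 and Ifit3 each held 2 separate matches, at 104 and 85 bases and at 156 and 122 bases upstream of the start, in the same order and with the same letters. Isg15 held 3 overlapping matches, which begin 78, 72 and 66 bases upstream, and Bst2 held 2 overlapping ones. Irgm2 held a single match 64 bases upstream. The stretches do not overlap an annotated exon of GENCODE M21. A match is a description of the letters and does not show that a factor binds there.

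Antigen presentation on MHC class I rose by smaller factors. Of 19 tested genes, 14 rose and none fell (median log2 0.61), and 11 were higher and none lower than in 4T1 medium. B2m, the light chain of all class I molecules, was at 428 and 438 CPM in control medium, 634 and 662 CPM in 67NR medium and 306 and 289 CPM in 4T1 medium (log2 0.58 against control and 1.12 against 4T1). Both 67NR libraries stood above both control libraries, and both 4T1 libraries below them. Tap1 and Tap2, the subunits of the peptide transporter, rose from 17.9 and 18.0 CPM to 47.8 and 43.2 CPM (log2 1.35) and from 15.4 and 12.3 CPM to 37.1 and 33.7 CPM (log2 1.34). Of 7 tested genes of the immunoproteasome and proteasome activator, 5 rose and 2 fell (median log2 0.44). Those that fell had log2 values of -0.30 and -0.21, and both calls did not hold together with a control or 67NR library left out. The inducible proteasome subunit Psmb8 rose from 1.51 and 0.892 CPM to 6.25 and 5.50 CPM (log2 2.23), and the activator subunits Psme1 and Psme2 rose by 0.44 and 0.41 on the log2 scale, the latter not without control replicate 2 (adjusted p = 0.0503). Of the 14 subunits of the constitutive proteasome core, 4 fell and none rose (median log2 -0.15), but 0 to 1 fell when a control or 67NR library was left out. Over all genes tested, 27.6% were called in either direction. Cd74, the invariant chain of MHC class II, rose from 2.02 and 1.86 CPM to 4.26 and 4.72 CPM (log2 1.20). How reads were divided among the similar H2 genes is uncertain.

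Genes of the cell cycle fell from entry to division. Of 20 cyclins and cyclin-dependent kinases, 19 fell and none rose (median log2 -0.83). Ccnd1, the cyclin that answers growth signals, was at 185 and 187 CPM in control medium and 121 and 132 CPM in 67NR medium (log2 -0.55). Ccna2, the cyclin of S phase and G2, fell from 65.2 and 75.0 CPM to 13.1 and 11.8 CPM (log2 -2.48), and the mitotic kinase Cdk1 from 60.8 and 59.0 CPM to 16.5 and 14.1 CPM (log2 -1.97, SE 0.09, adjusted p = 3.58e-08). Ccnb1, its cyclin, was at 25.1 and 28.8 CPM against 4.77 and 3.80 CPM (log2 -2.64). Both 67NR libraries lay below both control libraries for each of these genes. Ccnd2 did not pass in this fit (log2 -0.19, adjusted p = 0.061), but it passed in other fits, with adjusted p from 0.0172 (no filter) to 0.0413 (library totals alone) in the 4 that called it.

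Among the regulators of these waves, 7 of 20 fell and none rose (median log2 -0.25). Those that fell most are themselves cycle-regulated. Foxm1, the activator of mitotic genes, was at 45.2 and 46.2 CPM against 13.5 and 10.2 CPM (log2 -1.94), and Mybl2 and the repressor E2f8 fell by 2.38 and 2.66 on the log2 scale. E2f1 and the pocket proteins Rb1 and Rbl2 had log2 values of -0.20, -0.19 and 0.07 and did not pass. Of the 6 inhibitors of cyclin-dependent kinases, 1 rose and 2 fell. Cdkn2d (p19) fell by 0.63 on the log2 scale (adjusted p = 0.00268), and Cdkn2c (p18) was called lower (log2 -0.22) but not when any control or 67NR library was left out. Cdkn1b (p27, chromosome 6, 134920401 to 134925513) rose from 122 and 144 CPM to 210 and 206 CPM (log2 0.65, SE 0.08, adjusted p = 4.48e-05), with 109 and 109 CPM in 4T1 medium. Cdkn1a (p21), a target of p53, was at 126 and 138 CPM against 134 and 133 CPM (log2 0.01, adjusted p = 0.91). Of 21 p53 targets, 3 rose and 9 fell (median log2 -0.20), and 3 to 4 fell with a library left out. Sesn1 rose by 0.48 and Ccng1 fell by 0.40 on the log2 scale. Of 17 genes of quiescence and growth arrest, 8 rose and 2 fell (median log2 0.20), with 1 lower without 67NR replicate 1. Gas1, which holds cells out of the cycle, was at 104 and 113 CPM against 224 and 224 CPM (log2 1.05), the TAM receptor ligand Gas6 at 64.3 and 66.2 CPM against 139 and 130 CPM (log2 1.05), and the glucose uptake inhibitor Txnip at 118 and 123 CPM against 244 and 243 CPM (log2 1.02).

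The machinery of chromosome segregation fell with few exceptions. Of 33 kinetochore and checkpoint genes, 31 fell (median log2 -1.96), and all 36 tested genes of spindle, midbody and anaphase fell (median log2 -2.20). Bub1 (chromosome 2, 127801122 to 127831865), a checkpoint kinase, was at 34.9 and 36.6 CPM in control medium, 5.56 and 5.40 CPM in 67NR medium and 13.4 and 18.5 CPM in 4T1 medium (log2 -2.70 against control, adjusted p = 5.12e-08). Zwint and Hjurp were the kinetochore genes that did not pass, although Zwint did without the 4T1 libraries in the fit (adjusted p = 0.0465). Kif11, the motor that pushes spindle poles apart, fell from 70.0 and 76.0 CPM to 14.9 and 16.9 CPM (log2 -2.20), and Plk1, the kinase of mitotic entry and exit, from 31.7 and 36.3 CPM to 6.39 and 5.60 CPM (log2 -2.50). Against 4T1 medium, 28 of the 33 kinetochore genes and 35 of the 36 spindle genes were lower in 67NR medium, and none of either list was higher. Of 19 genes of chromosome structure, 17 fell (median log2 -0.49), and 12 were lower and 4 higher than in 4T1 medium. Their median log2 fold change against control was similar in 4T1 medium, at -0.51. Top2a, which untangles replicated DNA, fell from 211 and 215 CPM to 43.5 and 46.7 CPM (log2 -2.24), and Mki67, the coat protein of mitotic chromosomes, from 144 and 153 CPM to 26.0 and 32.0 CPM (log2 -2.35).

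Replication genes fell too, with a smaller median change. Of 47 genes of origin licensing and the replication fork, 44 fell and none rose (median log2 -1.01). The licensing factor Cdc6 was at 8.46 and 9.88 CPM against 1.30 and 1.22 CPM (log2 -2.85), and the helicase subunit Mcm5 at 58.6 and 62.6 CPM against 13.9 and 12.7 CPM (log2 -2.19). Mcm10, which joins the helicase to the polymerase, fell by 2.55 on the log2 scale, whereas the clamp Pcna fell from 52.6 and 58.4 CPM to 29.8 and 30.9 CPM (log2 -0.87). Orc6, a subunit of the origin recognition complex, was at 71.1 and 71.0 CPM against 70.8 and 69.0 CPM (log2 -0.02, adjusted p = 0.83). Of 22 genes of nucleotide synthesis, 21 fell (median log2 -0.57). Rrm2, the S phase subunit of ribonucleotide reductase, fell from 53.2 and 60.6 CPM to 9.91 and 10.9 CPM (log2 -2.44), while its p53-regulated counterpart Rrm2b did not pass (log2 -0.08). Ctps, which makes CTP, fell from 120 and 129 CPM to 57.7 and 60.8 CPM (log2 -1.07) but stood at 313 and 323 CPM in 4T1 medium. Of 33 genes of homologous recombination and repair, 28 fell and none rose (median log2 -1.28). Fancd2, a protein of crosslink repair, fell from 11.6 and 13.7 CPM to 2.36 and 2.29 CPM (log2 -2.43), and the glycosylase Neil3 showed the list's largest fall (log2 -2.96).

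**Figure D3:**
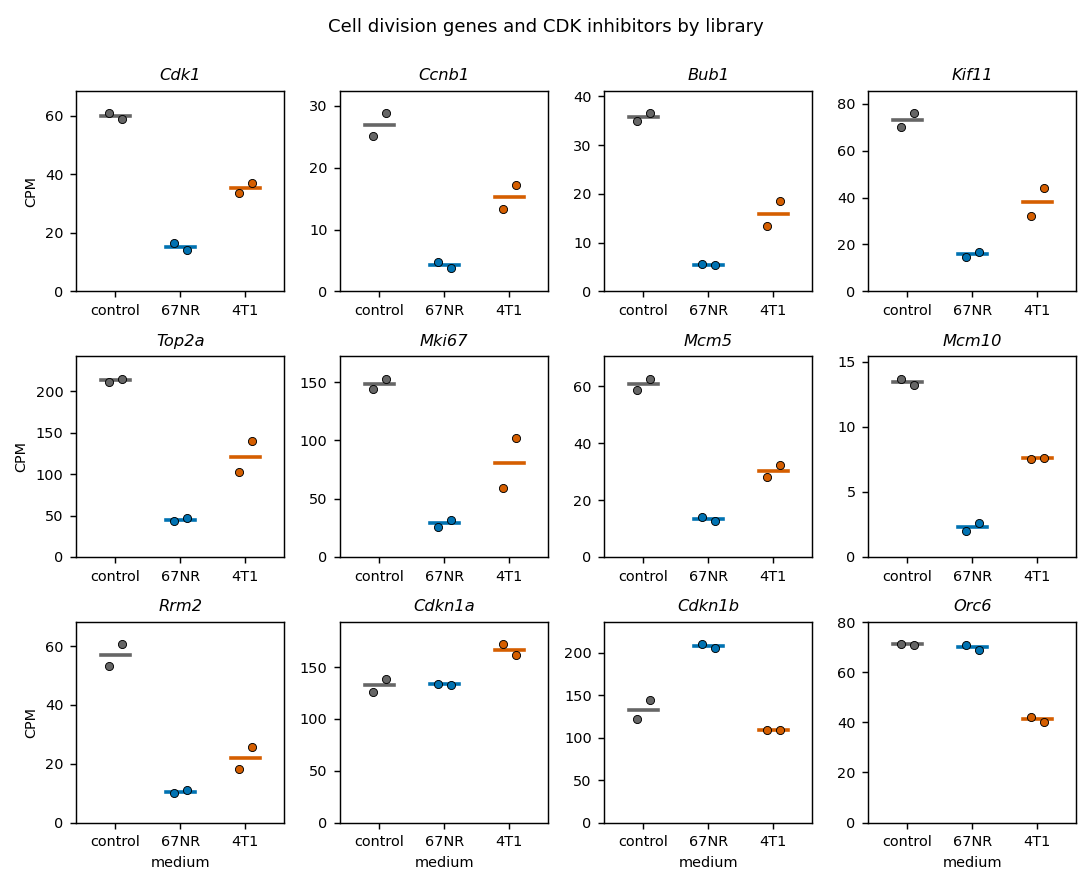
CPM (vertical axes, linear from 0, a separate scale per gene) of 12 cell division genes in control, 67NR and 4T1 medium, with each dot a library and each bar the mean of 2. In the 9 panels from Cdk1 to Rrm2 the 67NR libraries are the lowest, whereas Cdkn1a lies at 126 to 138 CPM in control and 67NR medium and Cdkn1b is highest in 67NR medium.

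The same promoter windows were read for 2 elements known from cell cycle genes, the CCAAT box bound by NF-Y and the letters TTTGAA, a form of the cell cycle homology region (CHR) bound by MuvB complexes, each on either strand. CCAAT stood in 41.1% of the tested genes that matched and in 37.5% of all symbols of the table, and TTTGAA in 13.0% and 18.3%. Among genes called at least 2-fold lower, 140 of 237 held CCAAT (59.1%) and 58 held TTTGAA (24.5%). Among those called at least 2-fold higher the shares were 39.3% and 14.9%. CCAAT stood in 21 of 31 matched spindle genes, 18 of 28 kinetochore genes and 24 of 38 licensing and fork genes. It was not particular to falling lists. CCAAT stood in 16 of 17 matched genes of cholesterol synthesis and uptake and 14 of 16 ER chaperones. It also stood in 13 of 14 matched MHC class I genes, but in 2 of 9 interferon-induced GTPases. TTTGAA stood in 15 of the 31 spindle genes (48.4%) and in 9 of 15 genes of chromosome structure. It stood in 7 of 38 licensing and fork genes (18.4%), 2 of 28 kinetochore genes (7.14%) and 2 of 23 recombination and repair genes (8.70%). Among rising lists it stood in 4 of 9 matched interferon-induced GTPases (44.4%) and 3 of 7 small leucine-rich proteoglycans (42.9%). In MHC class I, 1 of 14 matched genes held it. The stretches below are shown because both elements, or spaced pairs of CCAAT, stand in genes that fell by more than 2 on the log2 scale. Capitals mark both elements, which read ATTGG or TTCAAA where the match is on the other strand, and no marked element overlaps another.
Kif11 (chr19:37376272-37376381, plus strand): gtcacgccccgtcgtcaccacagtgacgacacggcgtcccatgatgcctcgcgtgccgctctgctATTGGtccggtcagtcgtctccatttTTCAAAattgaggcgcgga
Top2a (chr11:99024190-99024349, minus strand): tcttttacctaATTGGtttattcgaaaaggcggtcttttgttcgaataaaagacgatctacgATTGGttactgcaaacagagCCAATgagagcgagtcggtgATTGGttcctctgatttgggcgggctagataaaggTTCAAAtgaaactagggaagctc
Mki67 (chr7:135716460-135716569, minus strand): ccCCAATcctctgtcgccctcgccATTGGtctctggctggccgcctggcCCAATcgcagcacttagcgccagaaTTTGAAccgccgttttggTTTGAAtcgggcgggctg
Mcm5 (chr8:75109399-75109508, plus strand): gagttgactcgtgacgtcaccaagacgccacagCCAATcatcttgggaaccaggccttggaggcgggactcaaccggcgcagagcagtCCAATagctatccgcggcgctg
Mcm10 (chr2:5012792-5012901, minus strand): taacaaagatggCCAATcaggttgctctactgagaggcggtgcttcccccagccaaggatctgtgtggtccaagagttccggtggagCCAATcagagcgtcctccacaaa

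In Kif11 the CCAAT element lies 45 bases and the TTTGAA element 19 bases upstream of the start. Top2a holds 4 CCAAT elements in the stretch shown, with the nearest 58 bases upstream and a TTTGAA element at 23 bases. Mki67 holds 3 CCAAT and 2 TTTGAA elements. The replication genes Mcm5 and Mcm10 hold pairs of CCAAT, at 77 and 22 and at 98 and 23 bases, and no TTTGAA in the window.

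The matrix response was divided by protein family. Among 10 fibrillar collagens, 3 rose and 4 fell (median log2 0.14). Col3a1, which forms the fine fibres of the reticulum, rose from 7940.4 and 7469.8 CPM to 11601 and 10966 CPM (log2 0.55), and Col5a3 from 37.5 and 38.3 CPM to 87.5 and 81.0 CPM (log2 1.15). Col1a1 was at 14099 and 13536 CPM against 15613 and 14826 CPM (log2 0.14, adjusted p = 0.142) and passed without the 4T1 libraries in the fit (0.0387) and with no filter (0.0186). Col2a1, the collagen of cartilage, fell from 45.1 and 50.2 CPM to 14.5 and 14.9 CPM (log2 -1.69). Of 17 other collagens, 8 rose and 4 fell, or 1 to 3 with a library left out (median log2 0.39), and 13 were higher and 1 lower than in 4T1 medium. The 3 chains of type VI collagen, which forms beaded filaments around cells, moved together. Col6a1 (chromosome 10, 76708792 to 76726168) was at 1471 and 1394 CPM in control, 2958 and 2832 CPM in 67NR and 1716 and 1821 CPM in 4T1 medium (log2 1.01 against control). Col6a2, its neighbour on chromosome 10, rose by 1.13, and Col6a3 rose from 6.65 and 3.57 CPM to 22.2 and 23.6 CPM (log2 2.11), with 1.62 and 2.89 CPM in 4T1 medium. Col12a1, which decorates collagen fibres, was at 1237 and 1318 CPM against 694 and 931 CPM (log2 -0.65), and its call was lost without 67NR replicate 1 (adjusted p = 0.0572) and with DESeq2 (0.0552).

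Enzymes that mature collagen were split. Of 23 tested, 10 rose and 5 fell (median log2 0.10), and 2 to 3 fell with a library left out. The lysyl hydroxylase Plod2 was at 305 and 318 CPM against 552 and 549 CPM (log2 0.82), and the procollagen protease Adamts2 at 528 and 500 CPM against 930 and 902 CPM (log2 0.83). The crosslinking oxidase Lox fell from 3028 and 3419.9 CPM to 1934 and 1996 CPM (log2 -0.71), and Loxl2 fell by 0.51 on the log2 scale. The collagen chaperone Serpinh1 did not pass (log2 -0.05). Of 15 genes of elastic fibres, 9 rose and 1 fell (median log2 0.39), the latter not without 67NR replicate 2. Elastin itself (Eln, chromosome 5, 134702593 to 134747323) was at 16.9 and 18.8 CPM in control medium, 37.6 and 29.9 CPM in 67NR medium and 1.35 and 1.31 CPM in 4T1 medium (log2 0.93 against control and 4.66 against 4T1). The groups did not overlap, and the 4T1 libraries lay far below both others.

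Of 9 small leucine-rich proteoglycans, which coat collagen fibrils and bind growth factors, 8 rose and none fell (median log2 0.70). Decorin (Dcn) was at 48.3 and 48.9 CPM against 130 and 132 CPM (log2 1.43, SE 0.07, adjusted p = 3.58e-08), and lumican (Lum) at 2.08 and 1.41 CPM against 7.97 and 7.01 CPM (log2 2.06). Fibromodulin (Fmod) rose from 222 and 227 CPM to 351 and 330 CPM (log2 0.60), while it was at 29.7 and 27.6 CPM in 4T1 medium, and osteoglycin (Ogn) rose by 0.64. Decorin differed from fibromodulin in that its 4T1 libraries, at 195 and 185 CPM, stood above 67NR medium. Glycoproteins and matricellular proteins were mixed, with 12 of 32 higher and 8 lower (median log2 0.18), or 5 lower without control replicate 2. Matrilin 2 (Matn2) rose from 237 and 222 CPM to 589 and 555 CPM (log2 1.32), thrombospondin 2 (Thbs2) from 569 and 528 CPM to 1301 and 1254 CPM (log2 1.22), and Tgfbi from 3.79 and 2.08 CPM to 16.4 and 12.4 CPM (log2 2.24). Ptx3, the long pentraxin that stabilises hyaluronan matrix, fell from 214 and 237 CPM to 118 and 132 CPM (log2 -0.85). Thbs1 was called lower (log2 -0.39), but not without control replicate 2 (adjusted p = 0.0732) or without 67NR replicate 1 (0.109). Tnc, tenascin C, was called lower (log2 -0.37), but not without control replicate 2 (0.0972) or 67NR replicate 2 (0.0682). Postn, periostin, was called higher (log2 0.37), but not without 67NR replicate 1 (0.0755), and it was at 711 and 614 CPM in 67NR against 63.7 and 61.9 CPM in 4T1 medium.

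Proteases and their inhibitors shifted too. Of 28, 16 rose and 5 fell (median log2 0.37), or 3 without 67NR replicate 1. The gelatinase Mmp2 was at 721 and 683 CPM against 1162 and 1094 CPM (log2 0.68), and its membrane activator Mmp14 rose by 0.79 on the log2 scale. Serpine2, an inhibitor of thrombin and urokinase, rose from 94.0 and 102 CPM to 270 and 269 CPM (log2 1.46), and the sheddase Adam12 from 33.2 and 31.8 CPM to 81.5 and 80.2 CPM (log2 1.31). The inhibitor Timp1 fell from 154 and 145 CPM to 115 and 110 CPM (log2 -0.41), in contrast to 770 and 799 CPM in 4T1 medium. Fap, the protease used as a mark of activated fibroblasts, was at 0.519 and 0.372 CPM against 3.01 and 2.87 CPM (log2 2.67, SE 0.35, adjusted p = 9.31e-05), a rise at a low level. Of 15 integrins, 4 rose, or 2 without control replicate 2, and 2 fell (median log2 0.16). Itga8 (chromosome 2, 12106632 to 12301922), the alpha chain of a receptor for RGD proteins such as nephronectin, was at 1.30 and 1.26 CPM in control medium, 12.6 and 13.2 CPM in 67NR medium and 0 and 0.0545 CPM in 4T1 medium. Its log2 fold change against control was 3.32, and its counts in 4T1 medium, 1 in all, were at the floor. Itga4, a chain of the VCAM1 receptor, fell from 14.2 and 16.4 CPM to 4.82 and 5.21 CPM (log2 -1.60). The beta 1 chain Itgb1 did not pass (log2 -0.13).

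**Figure D4:**
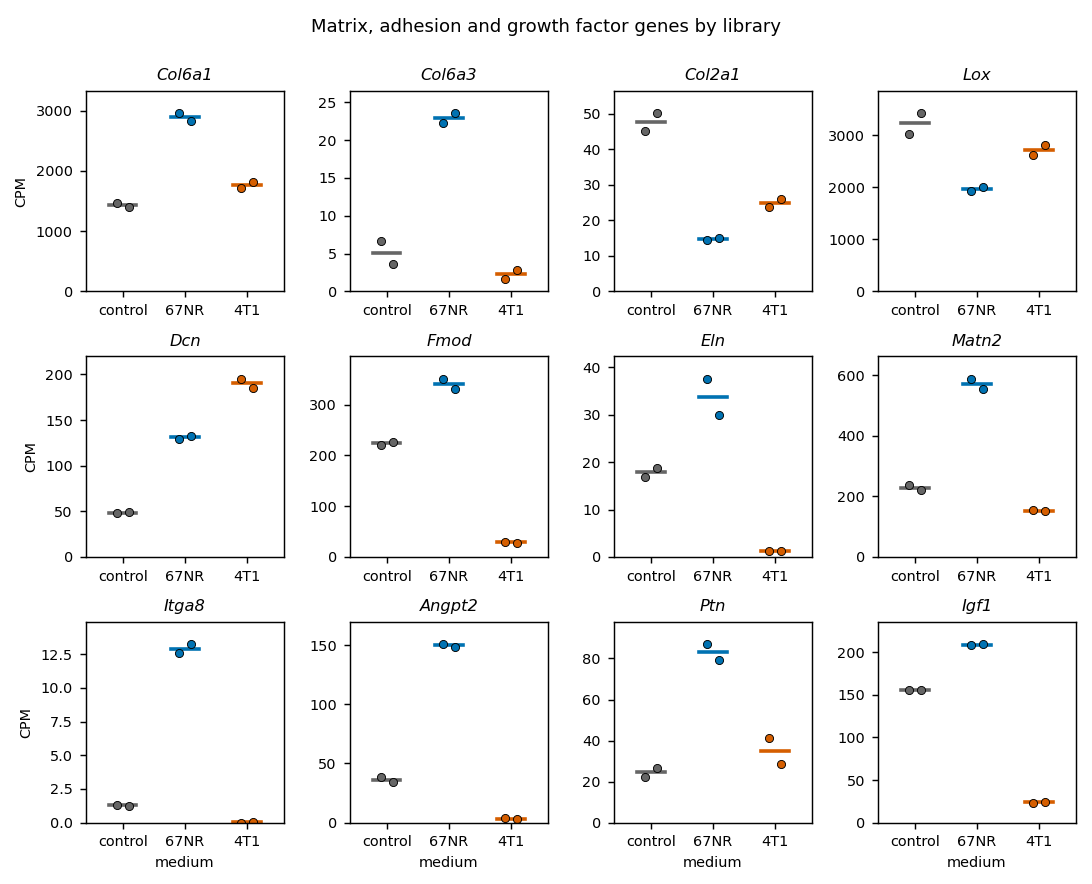
CPM (vertical axes, linear from 0, a separate scale per gene) of 12 matrix, adhesion and growth factor genes in control, 67NR and 4T1 medium, with each dot a library and each bar the mean of 2. Col6a3, Fmod, Eln, Matn2, Itga8, Angpt2 and Igf1 are highest in 67NR and lowest in 4T1 medium, Dcn is highest in 4T1 medium, and Col2a1 and Lox are lowest in 67NR medium.

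Secreted growth factors differed sharply between media. Of 32 growth factors and receptors tested, 12 rose and 3 fell (median log2 0.13). Angpt2 (chromosome 8, 18690263 to 18741562), a ligand of the endothelial receptor TIE2, was at 38.1 and 33.9 CPM in control medium, 151 and 149 CPM in 67NR medium and at most 3.58 CPM in 4T1 medium (log2 2.05 against control, adjusted p = 1.97e-08, and 5.52 against 4T1). Its relative Angpt1 followed the same order, at 4.88 and 2.90, 12.1 and 12.9, and 0.608 and 0.708 CPM (log2 1.64 against control). Pleiotrophin (Ptn), a heparin-binding growth factor, rose from 22.1 and 26.8 CPM to 86.9 and 79.3 CPM (log2 1.78). Igf1 was at 155 and 156 CPM against 209 and 209 CPM (log2 0.42) and at 22.8 and 24.3 CPM in 4T1 medium. Vegfa, the main angiogenic factor, did not pass (log2 0.05). Hgf, the ligand of MET, rose from 0.363 and 0.149 CPM to 1.20 and 1.12 CPM (log2 2.06) and was higher in 4T1 medium, at 6.15 and 6.59 CPM.

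Among TGF-beta and YAP signals, 6 of 22 rose and 5 fell (median log2 -0.00), and 3 to 5 fell with a library left out. The receptor Tgfbr2 rose from 168 and 167 CPM to 259 and 271 CPM (log2 0.66), and the ligands Tgfb1 and Tgfb3 rose by 0.54 and 0.43 on the log2 scale. The YAP targets Ankrd1 and Ccn2 fell, from 453 and 493 CPM to 274 and 289 CPM (log2 -0.75) and from 236 and 238 CPM to 159 and 162 CPM (log2 -0.56). Of 28 contractile genes, 5 rose and 7 fell (median log2 -0.05), or 3 to 4 and 3 to 6 with a library left out, and smooth muscle actin (Acta2) did not pass. Myosin light chain kinase (Mylk) rose by 0.83 and the focal adhesion protein zyxin (Zyx) fell by 0.65. Of 30 Wnt genes, 13 rose and 3 fell (median log2 0.29). The receptor Fzd4 was at 120 and 125 CPM against 207 and 212 CPM (log2 0.78), and the secreted modulators Dkk3 and Sfrp2 rose by 0.71 and 0.45, whereas Axin2, a common readout of the pathway, did not pass (log2 0.65, adjusted p = 0.0827). The receptor Notch1 rose from 39.4 and 40.8 CPM to 66.5 and 68.1 CPM (log2 0.75), and its target Hes1 did not pass (log2 -0.04). Of 15 genes of BMP signalling, 1 rose and 1 fell, and the number lower was larger in part of the fits that left out a library. The BMP antagonist Nbl1 was at 18.4 and 18.5 CPM against 32.5 and 29.0 CPM (log2 0.74), and Bmp4 at 271 and 293 CPM against 210 and 212 CPM (log2 -0.42).

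Of 16 immediate early factors, which answer growth factor and stress signals within minutes, 8 rose and 2 fell (median log2 0.32). Egr1 was at 414 and 403 CPM against 701 and 698 CPM (log2 0.78), with 635 and 772 CPM in 4T1 medium, and Egr2, Egr3 and Nr4a1 rose by 1.05, 1.11 and 0.99 on the log2 scale. Myc, the growth-promoting factor, fell from 78.8 and 83.5 CPM to 56.9 and 56.9 CPM (log2 -0.51) but was at 156 and 143 CPM in 4T1 medium. For these genes the 2 libraries of 67NR medium lay close together and apart from control.

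Complement genes such as C4b and C3 and the acute phase gene Cp rose in 67NR medium, while Lcn2 did not pass and the monocyte chemokines Ccl2 and Ccl7 fell. Of 19 acute phase and complement genes tested, 8 rose and none fell (median log2 1.12), and 18 were lower than in 4T1 medium. C1s1 and C1ra encode proteases of the classical pathway. C1s1 was at 20.7 and 23.7 CPM in control, 63.7 and 61.4 CPM in 67NR and 317 and 330 CPM in 4T1 medium, and C1ra at 48.4 and 46.6, 90.1 and 95.1, and 286 and 321 CPM (log2 0.96). C4b rose by 1.62 on the log2 scale. C3 (chromosome 17, 57203970 to 57228136), on which all complement pathways converge, was at 3.37 and 4.61 CPM against 8.94 and 8.86 CPM (log2 1.19, adjusted p = 0.000152), and at 593 and 691 CPM in 4T1 medium. Ceruloplasmin (Cp), a ferroxidase, rose from 199 and 194 CPM to 498 and 497 CPM (log2 1.34). Lipocalin 2 (Lcn2) was at 2.02 and 1.86 CPM against 1.76 and 2.34 CPM (log2 0.06, adjusted p = 0.878), and Saa3 at 0.260 and 0.520 CPM against 0.232 and 0.341 CPM. The control and 67NR libraries overlapped for Lcn2, which stood at 2563 and 2662 CPM in 4T1 medium.

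The chemokines were split, with 4 of 13 higher and 5 lower (median log2 0.10), or 2 to 4 and 3 to 4 with a library left out. Ccl2 (chromosome 11, 82035571 to 82037453), which recruits monocytes, fell from 12.5 and 15.5 CPM to 7.23 and 7.74 CPM (log2 -0.89, SE 0.14, adjusted p = 0.000386), whereas it was at 80.2 and 92.8 CPM in 4T1 medium. Ccl7, its neighbour with the same receptor, fell from 25.4 and 26.6 CPM to 15.4 and 17.1 CPM (log2 -0.67) and was at 146 and 158 CPM in 4T1 medium. For both genes the 67NR libraries were the lowest of the 3 media. The scavenging receptor Ackr3 rose from 12.8 and 10.6 CPM to 28.3 and 22.4 CPM (log2 1.10), and Cxcl16, a transmembrane chemokine, by 1.05 on the log2 scale. Cxcl12, the abundant chemokine of stroma, was at 6088 and 6496 CPM against 6805 and 6691 CPM and did not pass (log2 0.10, adjusted p = 0.283). Of 28 genes of the TLR4 complex and NF-kB, 6 rose and 2 fell (median log2 0.02), but 1 to 2 rose and 0 to 2 fell with a library left out. For comparison, 13.0% of all genes tested rose and 14.6% fell. Tlr4 did not pass. The inhibitor Nfkbia rose from 38.5 and 36.8 CPM to 51.8 and 53.6 CPM (log2 0.48), whereas the brake Tnfaip3 was called lower (log2 -0.32) but not without control replicate 2 (adjusted p = 0.0917), 67NR replicate 1 (0.103) or 67NR replicate 2 (0.0582).

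Of 22 cytokines and cytokine receptors, 10 rose and 1 fell (median log2 0.14), the latter not without control replicate 2 or 67NR replicate 2. Il4ra, a receptor chain for IL-4 and IL-13, was at 26.2 and 27.1 CPM against 57.0 and 55.9 CPM (log2 1.09) and at 253 and 296 CPM in 4T1 medium. The receptor antagonist Il1rn and the alarmin Il33 rose by 0.93 and 0.74 on the log2 scale. Il6 was at 1.82 and 1.93 CPM against 1.48 and 1.17 CPM and did not pass, while it stood at 69.8 and 81.0 CPM in 4T1 medium. Among stromal identity genes, 3 of 11 rose and 1 fell (median log2 0.01). Pdgfra rose from 34.4 and 33.0 CPM to 60.9 and 62.2 CPM (log2 0.87), Pdgfrb rose by 0.45, and Vcam1 was at 212 and 200 CPM against 209 and 207 CPM (log2 0.01). Podoplanin (Pdpn), which defines FRCs, was called lower (log2 -0.27), but not without control replicate 2 (adjusted p = 0.200) or without 67NR replicate 1 (0.271).

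Metabolic genes shifted in a few pathways. Of 19 glycolytic genes, 11 fell and 1 rose (median log2 -0.34). Lactate dehydrogenase Ldha (chromosome 7, 46841475 to 46855627) was at 528 and 542 CPM in control medium, 304 and 296 CPM in 67NR medium and 544 and 557 CPM in 4T1 medium (log2 -0.83 against control, SE 0.06, adjusted p = 6.16e-07). Hexokinase 2 (Hk2), which traps glucose in the cell, fell from 31.3 and 34.6 CPM to 19.4 and 18.4 CPM (log2 -0.79) and was at 83.4 and 82.8 CPM in 4T1 medium. Pgk1, Eno1 and Pkm, enzymes of the lower pathway, had log2 fold changes of -0.70, -0.61 and -0.60. The gene that rose was Ldhb (log2 0.47), whose call was lost without control replicate 1 (adjusted p = 0.133) and without 67NR replicate 2 (0.0708). Of 16 genes induced by low oxygen, 2 rose and 2 fell, or 1 to 2 each with a library left out, and Hif1a did not pass. The share called in either direction over all genes tested was 27.6%. Ndrg1 rose from 163 and 164 CPM to 276 and 288 CPM (log2 0.79), whereas Ankrd37 showed the list's largest fall (log2 -0.95, adjusted p = 0.000551). Ero1l was the other gene that fell (log2 -0.33), though not without 67NR replicate 2.

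Of 24 amino acid stress genes under ATF4, 12 fell and 1 rose, the latter not with any control or 67NR library left out (median log2 -0.20), and 22 were lower than in 4T1 medium. Asparagine synthetase Asns was at 355 and 352 CPM against 267 and 266 CPM (log2 -0.41) and at 472 and 449 CPM in 4T1 medium. The serine synthesis enzyme Psph fell from 59.5 and 68.9 CPM to 42.4 and 37.2 CPM (log2 -0.69). Chaperones of the endoplasmic reticulum moved the other way, with 7 of 19 higher and none lower (median log2 0.16) and 16 higher than in 4T1 medium. Calreticulin (Calr) was at 2294 and 2305 CPM in control, 2956 and 2976 CPM in 67NR and 1224 and 1227 CPM in 4T1 medium (log2 0.37 against control). Of 24 genes of cholesterol synthesis and uptake, 2 rose and 1 fell (median log2 -0.01), and all 24 were higher than in 4T1 medium. Hmgcs1 was at 388 and 426 CPM against 389 and 411 CPM and at 191 and 207 CPM in 4T1 medium. The 3 calls of that list, Tm7sf2, Srebf2 and Acat2, each ended without control replicate 1 (adjusted p = 0.0905, 0.149 and 0.0549) and without 67NR replicate 1 (0.095, 0.209 and 0.124).

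Iron handling changed at the transferrin receptor. Tfrc (chromosome 16, 32608920 to 32632794), which brings iron into the cell and is high in dividing cells, fell from 112 and 128 CPM to 38.9 and 39.8 CPM (log2 -1.60, adjusted p = 2.37e-07), with 84.8 and 107 CPM in 4T1 medium. The storage protein ferritin heavy chain Fth1 rose from 1449 and 1413 CPM to 1807 and 1821 CPM (log2 0.34). Of 23 lysosomal genes, 13 rose and none fell (median log2 0.24), and 5 to 8 rose with a library left out. Progranulin (Grn) was at 300.5 and 284 CPM against 410 and 402 CPM (log2 0.47), the beta-hexosaminidase chain Hexa at 129 and 123 CPM against 171 and 171 CPM (log2 0.44), and the regulator Tfeb did not pass (log2 -0.08). The fatty acid carrier Fabp5 fell from 201 and 214 CPM to 116 and 140 CPM (log2 -0.70).

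**Figure D5:**
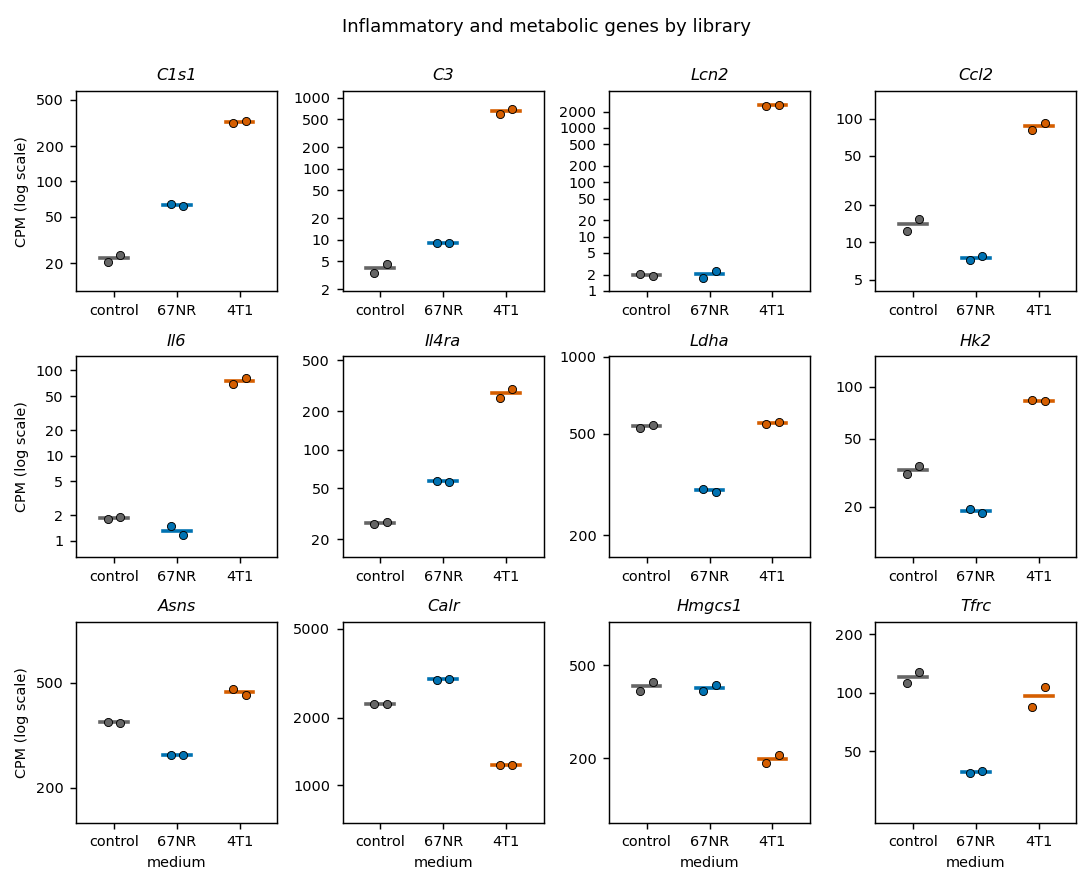
CPM (vertical axes, log scale, a separate range per gene) of 12 inflammatory and metabolic genes in control, 67NR and 4T1 medium, with each dot a library and each bar the mean of 2. C1s1, C3 and Il4ra stand between control and 4T1 medium in 67NR medium, Lcn2 overlaps with control, and Ccl2, Ldha, Hk2, Asns and Tfrc are lowest in 67NR medium.

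Markers of other cells and of RNA quality were measured beside these results. Of 3 tested epithelial markers none rose and 1 fell, though not with any control or 67NR library left out, and the list summed to 9.66 and 8.47 CPM in control and 6.90 and 6.62 CPM in 67NR medium, with Epcam at 0 counts in all 6 libraries. The endothelial list summed to 15.0 and 16.6 CPM against 27.4 and 24.5 CPM, with 1 of 5 tested genes called, Emcn (log2 0.84). The leukocyte list summed to 7.11 and 8.70 CPM against 12.9 and 11.9 CPM, with 1 of 3 called, Lyz2 (log2 0.80), whose call was lost without control replicate 1 (adjusted p = 0.053). Cd3e and Adgre1 had 0 counts in all libraries. The pericyte, muscle and adipocyte list summed to 38.7 and 39.2 CPM against 35.6 and 38.5 CPM, with 2 of 5 lower, or 1 without control replicate 2 or 67NR replicate 1. Of 14 RNA quality genes, 9 rose and none fell (median log2 0.43), or 3 to 12 rose with a library left out. The mitochondrial genome gave 1.32 and 1.87% of counts in control and 1.96 and 2.28% in 67NR medium, and the nuclear RNA Malat1 was at 230 and 273 CPM against 334 and 514 CPM (log2 0.75). The part of these differences in the results above was not tested.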

How the data were processed

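The labels' protocols describe poly(A) selection from 500 ng RNA, a directional kit and an Illumina NextSeq500 instrument. Raw counts by gene symbol, made with Subread on mm10, were deposited by the authors, whose notes also name DESeq2 1.32.0, per the submitters' processing notes. The strand setting of counting is not given in the sources used here, which leaves overlapping genes, antisense genes and close paralogs uncertain.

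All 6 libraries of the unfiltered table entered 1 model in edgeR 4.0.16 (filterByExpr with minimum count 10 and minimum total 15, TMM scaling, quasi-likelihood F tests). CPM uses TMM-scaled totals of the tested genes. Each SE was derived from a gene's log2 fold change and F. R 4.3.3 ran the fits, which were tested on simulated data, and matplotlib 3.10.9 drew the figures. Counting intervals cover counting error only. Alternatives comprised other scalings (size factors, totals), no filter, a replicate block, leaving out each library, fitting the compared groups alone and the Wald test of DESeq2 1.42.0.

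The comparison and the 58 gene lists were chosen with earlier results of these data known. Genes were named by rule: the 10 largest rises and falls of at least 10 CPM without overlap, marked list members, the 3 largest changes per list of at least 5 CPM, and the 6 largest differences from 4T1 medium each way. Others, such as Ifit2, Irgm2, Lgals3bp, Xaf1, Orc6, Fap, Fmod, Ctps, Myc and Tnfaip3, were chosen after their values were seen. Gene positions come from GENCODE M21 (GRCm38, as mm10), which held 14719 of the tested symbols. Some genes of the lists are not reported here.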

Additional observations from a re-analysis of the deposited data

Results flagged for a closer look

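Of the 294 tested genes named by the rule, 248 differed between 67NR and 4T1 medium in edgeR's direct test. Over all genes tested, 6531 of 15055 did (43.4%). The rule picked large changes and the largest differences from 4T1 medium, so the higher share follows in part from that choice. The 18 below were also called in opposite directions against control medium in both tumour media and differed at least 4-fold between them. Values are log2 fold changes of 67NR over 4T1 medium, from 2 libraries per medium.

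Higher in 67NR medium were 14 genes, most of them of matrix, adhesion and vascular signals. Only named genes were searched, and many of these come from lists chosen for matrix genes and growth factors, so this make-up follows in part from that choice. The integrin chain Itga8 differed by 8.44 with 1 count in 4T1 medium, so that this fitted value depends on the prior count. The TIE2 ligands Angpt2 and Angpt1 differed by 5.52 and 4.22, and the integrin-like Itgbl1 by 5.19. Elastin (Eln) differed by 4.66, asporin (Aspn) by 4.93, Postn by 3.40, Col6a3 by 3.30 and Col27a1 by 2.37. The ligands Igf1 and Tgfb3 differed by 3.14 and 2.58. Tmem252 and Plxdc2 differed by 4.94 and 4.77, and the lysozyme gene Lyz2 by 2.13.

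Lower in 67NR medium were 4 genes. The monocyte chemokines Ccl2 and Ccl7 differed by -3.53 and -3.22, the protease inhibitor Timp1 by -2.80 and hexokinase Hk2 by -2.14. The calls of Postn and Lyz2 against control were lost without 67NR replicate 1 (adjusted p = 0.0755) and without control replicate 1 (0.053).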

How the results depend on the processing

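Leaving out 1 control or 67NR library lowered the counts by more than 1.5 times, to between 1043 and 1112 genes higher and between 1184 and 1350 lower in 67NR medium than in control, where the lone library is assumed to vary like the others. Under other scalings, no filter, the compared groups alone and DESeq2's Wald test, the counts ranged from 1413 to 2570 higher and 1567 to 2755 lower. Without 4T1 replicate 1 they were 2497 and 2839, and without 4T1 replicate 2 they were 2494 and 2840. Libraries with the same replicate number shared little deviation across genes (correlations -0.041, 0.005 and 0.069), which cannot tell whether they were prepared together. A replicate block gave 2063 and 2319. Among 353 genes followed, the block ended 2 calls and added 6, the Wald test ended 18, leaving out 67NR replicate 1 ended 32, and no direction of a call reversed in any alternative. With 2 libraries per medium and 3 residual degrees of freedom, small changes may be missed.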

Other observations

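Some of the larger changes fell outside every gene list, and the genes here were chosen after their values were seen. Ndrg2, a stress-responsive member of the NDRG family, was at 2.70 and 1.86 CPM in control medium and 15.0 and 12.7 CPM in 67NR medium (log2 2.56, SE 0.19), and was higher than in 4T1 medium by 2.98. Sned1, a matrix protein, rose from 19.7 and 21.6 CPM to 77.4 and 91.9 CPM (log2 2.04), with 17.9 and 24.3 CPM in 4T1 medium. The carboxypeptidase-like secreted proteins Cpz and Cpxm1 rose by 2.23 and 1.87, and Islr, a stromal cell marker, rose from 11.8 and 10.4 CPM to 41.4 and 36.2 CPM (log2 1.79). Agpat5, an acyltransferase of phospholipid synthesis, was at 285 and 273 CPM against 642 and 672 CPM (log2 1.24) and at 80.0 and 66.7 CPM in 4T1 medium. Pgm5, an adherens junction protein, rose by 1.21 and stood 4.65 above 4T1 medium. For each of these genes the 2 libraries of 67NR medium lay above both control libraries, while 67.6% of all genes tested had no overlap between these groups.

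Other genes moved in the same direction in both tumour media or fell in both. Gdpd2 rose from 2.13 and 2.16 CPM to 10.5 and 9.54 CPM (log2 2.22) and was at 9.19 and 9.15 CPM in 4T1 medium, a difference between tumour media that did not pass (log2 0.13, adjusted p = 0.466). Ndnf, a secreted neurotrophic protein, fell from 31.0 and 30.5 CPM to 10.7 and 9.88 CPM (log2 -1.57) and was at 0.473 and 0.436 CPM in 4T1 medium. The phosphodiesterase Pde1a rose from 5.50 and 4.01 CPM to 11.5 and 10.8 CPM (log2 1.20) and was at 99.8 and 113 CPM in 4T1 medium.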
